A study of Mus musculus with 37 samples.

Results

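Histone genes were examined in E10.5 mouse hearts in which the dose of Nipbl, of Isl1 or of both was reduced. A histone gene was any row of the count table whose symbol begins like a histone gene name (Hist1h to Hist4h, H1f, H2a, H2b, H3c, H3f, H4c or H4f) and whose counts summed to 50 or more over all libraries. Of 25239 gene rows, 106 had such a symbol, 38 of these fell under the limit (28 with a total of 0), and 68 remained. By name, 55 of the 68 are replication-dependent genes, 10 are variants, 2 (H1f6 and H2al1m) are germ-line histones and 1 (H2bu1-ps) is a pseudogene. GENCODE M21 gives the biotype processed pseudogene to the variants H3f3c and H2afy3 as well as to H2bu1-ps. The replication-dependent genes comprised 5 of H1, 13 of H2A, 14 of H2B, 10 of H3 and 13 of H4.

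The study measured hearts by bulk paired-end RNA sequencing in 37 libraries, and its title names an interaction of Nipbl, a loader of the cohesin ring on DNA, with Isl1, a transcription factor of cardiac progenitors. Fathers were Stra8-iCre; Nipbl Flox/+, with a Cre driven by a male germ-line promoter, so that sperm carried either Nipbl Flox, which the submitters call a wild-type allele, or the null allele Nipbl FIN. Mothers were Isl1 Cre/+, with Cre inserted in 1 Isl1 allele, which leaves the embryo that inherits it with 1 working copy of Isl1. The groups were wild-type (Nipbl +/+; Isl1 +/+, n = 10), Isl1_het (Isl1 +/-, n = 9), Nipbl_het (Nipbl +/-, n = 9) and double_het (Nipbl +/-; Isl1 +/-, n = 9). Every Isl1_het and double_het embryo thus also carries Cre at Isl1, and Nipbl +/+ embryos of this cross can carry the Flox allele. Each library also has a set number (1, 2, 5, 6 or 7) in its label, whose meaning the label does not spell out. Sets 2, 5 and 6 hold all 4 genotypes, set 1 holds only wild-type and Isl1_het, and set 7 holds only double_het replicate 2.

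Histones package DNA into nucleosomes, whose core is made of H2A, H2B, H3 and H4, while H1 binds the linker DNA between them. Replication-dependent histone genes lie in clusters, are transcribed mainly in S phase, and give messages that end in a conserved stem-loop instead of a poly(A) tail. Some of them also give polyadenylated messages in cells that leave the cycle. Variant genes such as H3f3a, H3f3b, H2az1 and H1f0 are transcribed outside S phase and are polyadenylated, and H1f0 is a linker histone of slowly dividing and differentiated cells. Whether poly(A) selection or ribosomal RNA depletion preceded library construction is not given in the sources used here, so low counts of replication-dependent genes do not tell their abundance in the cell.

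H2bu2, a replication-dependent H2B gene outside the main clusters, was 2.54-fold higher in Nipbl_het and 1.85-fold higher in double_het than in wild-type, and was not called in Isl1_het. The double_het call was lost when set 2 was left out (adjusted p = 0.225 by edgeR). H1f2, a replication-dependent H1 gene, was 1.33-fold higher in Nipbl_het, a call at the threshold that was lost when any 1 of 25 of the 37 libraries was left out. No other of the 48 histone genes that passed the filter on low counts was called in any of 7 comparisons in the main fit. That fit had genotype and set number as its only terms, and no histone gene was called lower in it. Other settings called further genes, among them H2bc9 with a lower level. Without Nipbl_het replicate 2, a library whose Nipbl level goes against its label, H2bu2, H1f2 and the linker variant H1f0 were called in Nipbl_het.

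The stem-loop is shown because it separates the histone messages by how they can be read. A search of the GENCODE M21 transcripts (build GRCm38) on the transcript strand, for GG, any 2 letters, CTTTT, any 1 letter, AG, any 2 letters and CC, found it in 36 of 55 replication-dependent genes, in 1 of 10 variants (H2ax) and in the germ-line gene H1f6. Below, capitals mark the 2 sides of the stem and lower case marks the loop. The first form stood in 19 genes, among them H2bu2, H2aw, H1f2 and H2ac11, the second in 7 H4 genes, the third in 6 genes including H3c3, and the fourth in H4c9 and H4c14.
H2bu2, H2aw, H1f2, H2ac11: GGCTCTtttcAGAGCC
H4c3, H4c4, H4c6, H4c8: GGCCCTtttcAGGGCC
H3c3, H3c6: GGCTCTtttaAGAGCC
H4c9, H4c14: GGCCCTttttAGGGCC
H4c2, H4c11: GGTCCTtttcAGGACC
The M21 model ended within 100 bases of the stem-loop in 17 replication-dependent genes and ran on for more than 100 bases in 19, while 19 had no match in the model. Some models without a match are short, such as 381 bases for H2bc13, H2bc15 and H2bc18, where RefSeq has 473, 478 and 493. A missing match therefore does not show that the message lacks a stem-loop. Beyond the stem-loop, 169 bases of model remain in H2bu2, 840 in H1f2, 1643 in H2aw, 330 in H4c9 and 23 in H2ac11. A mean above 1 CPM (counts scaled to library size by the trimmed mean of M-values, TMM) was reached by 3 of the 17 genes that end at the stem-loop, by 5 of the 19 that run on and by 2 of the 19 without a match.

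Promoters of H2bu2, its neighbour H2aw and H1f2 are shown because H2bu2 and H1f2 were called between genotypes and H2aw, which was not, lies next to H2bu2. Each is the 250 bases before the RefSeq start (GRCm38.p6). Capitals mark the CCAAT box (letters CCAAT), the TATA box (letters TATAAA) and the octamer (letters ATTTGCAT). All were searched on both strands, so capitals that read otherwise are the same motifs on the opposite strand.
H2bu2 promoter, chr11:58948661-58948910, plus strand: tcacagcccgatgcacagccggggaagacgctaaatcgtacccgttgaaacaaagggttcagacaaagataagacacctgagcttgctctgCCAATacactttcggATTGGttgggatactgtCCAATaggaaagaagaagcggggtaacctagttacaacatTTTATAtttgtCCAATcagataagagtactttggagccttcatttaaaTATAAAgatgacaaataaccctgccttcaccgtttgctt
H2aw promoter, chr11:58954435-58954684, plus strand: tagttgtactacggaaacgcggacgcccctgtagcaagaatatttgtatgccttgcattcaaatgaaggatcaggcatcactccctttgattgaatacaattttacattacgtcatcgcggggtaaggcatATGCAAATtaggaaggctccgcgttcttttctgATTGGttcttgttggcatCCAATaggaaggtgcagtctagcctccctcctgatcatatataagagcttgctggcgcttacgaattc
H1f2 promoter, chr13:23738557-23738806, plus strand: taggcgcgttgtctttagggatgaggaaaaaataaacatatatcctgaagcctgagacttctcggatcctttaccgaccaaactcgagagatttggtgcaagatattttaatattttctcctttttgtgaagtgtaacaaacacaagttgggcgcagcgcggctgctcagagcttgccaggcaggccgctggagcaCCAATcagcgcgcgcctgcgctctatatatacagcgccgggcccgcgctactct
The H2bu2 window held CCAAT 4 times and TATAAA 2 times, the H2aw window CCAAT 2 times and the octamer once (1), and the H1f2 window CCAAT once (1). Of the 48 replication-dependent genes with a promoter in the table, 85.4% held CCAAT, against 33.8% of all 32851 promoters, and only 3 of 10 H4 promoters did. TATAAA stood in 47.9% against 12.4%. The octamer stood in 25.0% against 1.6%, and its 12 holders were 6 H2A and 6 H2B genes. These matches describe letters and are not tested sites.

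Many histone genes share long stretches with each other, so their counts are uncertain to a degree that differs between genes. In windows of 75 letters, the median replication-dependent gene shared 38.5% of its windows with a transcript of another gene, 23 of 55 shared over 50%, and 4 (H1f1, H1f5, H2bc21 and H4c14) shared none. H2bu2 shared 13.9%, all of them with the pseudogene H2bu1-ps, H1f2 shared 6.66% and H1f0 4.49%. The share was 30.6% in H2aw, part of it with the overlapping gene Trim17, 59.9% in H3f3c and 77.6% in H2ac11. How the authors counted reads with several matches, and whether strand was used, is not given in the sources used here.

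Per length, 9 of the 10 variants stood far above most replication-dependent genes, the exception being H2afy3. Levels per kb of M21 exon were 299 CPM per kb for H2az1, 161 for H3f3b, 144 for H2ax, 132 for H1f0, 114 for H3f3a and 64.1 for H1f10. H2ac11 was the highest replication-dependent gene at 44.8 CPM per kb, followed by H4c9 at 9.68, H2bc4 at 7.54, H2bu2 at 7.44, H2aw at 6.39 and H1f2 at 6.35. This order uses M21 lengths, and the models used for counting are not given. RefSeq has 508 bases for H2aw (M21 2146), 725 for H1f2 (1560), 403 for H4c9 (727) and 1037 for the variant H3f3c (411). The order could thus differ with other models. Only 10 of the 55 replication-dependent genes had a mean above 1 CPM, and 18 had a count of 0 in at least 1 library. H2ac11 made up 23.8% of their summed CPM, and 5 genes (H2ac11, H2aw, H1f2, H2bc4 and H4c9) made up 66.9%. The filter kept 48 of the 68 genes. It dropped 20, namely 16 of the 55 replication-dependent genes, the variant H2afy3, both germ-line genes and the pseudogene, so statements on tests cover the kept genes only.

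**Figure D1:**
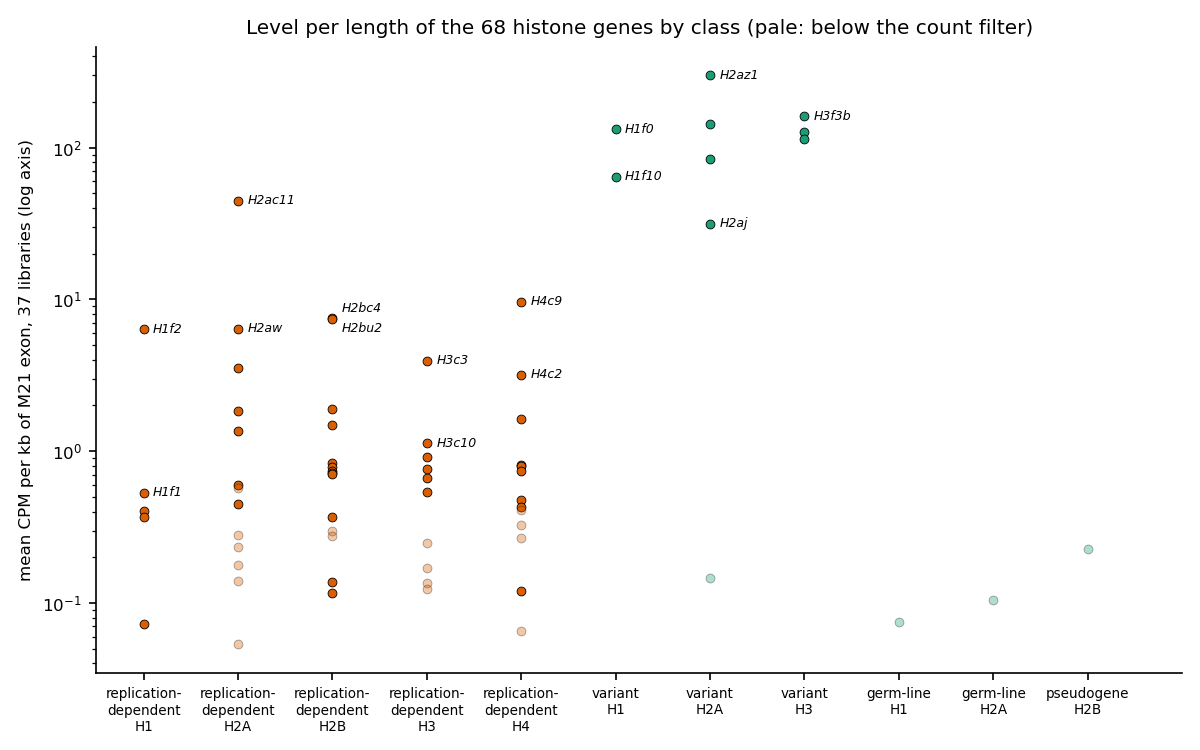
Mean CPM per kb of M21 exon over 37 libraries (log axis) for each of the 68 histone genes, by class and type; each point is a gene and pale points did not pass the filter on low counts. The tested variants lie between 31.4 (H2aj) and 299 (H2az1), and of the replication-dependent genes H2ac11 alone, at 44.8, reaches that range.

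H2bu2 encodes an H2B protein and lies on mouse chromosome 11 (M21, chr11:58948920-58949533, plus strand), away from chromosomes 13 and 3, which hold 46 and 6 of the 55 replication-dependent genes. The RefSeq long non-coding gene Gm51864 overlaps it, so reads of the 2 genes may not be separable. H2bu2 was measured at 2.37 to 4.27 CPM in wild-type (median 2.80) and at 2.47 to 3.73 in Isl1_het (median 2.99). It was measured at 4.44 to 15.3 CPM in Nipbl_het (median 5.06) and at 3.87 to 9.27 in double_het (median 4.77). All 9 Nipbl_het libraries were above all 10 wild-type libraries, all 9 double_het libraries were above all 9 Isl1_het libraries, and 8 of 9 double_het libraries were above all wild-type libraries. The exception, double_het replicate 2 at 3.87 CPM, is the library of set 7 and was below wild-type replicate 7 at 4.27 CPM. In raw counts the gene had 80 to 560 reads per library.

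The H2bu2 mean was 2.92 ± 0.607 CPM (SD, n = 10) in wild-type, 7.19 ± 3.53 in Nipbl_het and 5.33 ± 1.70 in double_het (n = 9 each). The fitted log2 change was 1.34 (SE 0.18, 95% interval 0.97 to 1.71, edgeR quasi-likelihood adjusted p = 7.34e-05) in Nipbl_het and 0.89 (SE 0.19, 0.51 to 1.27, adjusted p = 0.00524) in double_het. In Isl1_het it was 0.07 (95% interval -0.29 to 0.43, adjusted p = 0.959), so an Isl1_het change as large as either of these lies outside that interval. Averaged over both Isl1 genotypes, Nipbl loss went with an H2bu2 log2 change of 1.08 (SE 0.14, adjusted p = 7.89e-06). Without Nipbl_het replicate 2 the Nipbl_het log2 change was 1.11 (adjusted p = 4.69e-06) and the double_het change 0.92 (adjusted p = 5.21e-05). The Nipbl_het call held in all 48 alternative settings.

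Taken set by set, mean log2 CPM of H2bu2 in Nipbl_het exceeded that of wild-type by 1.30 in set 2, 1.04 in set 5 and 1.18 in set 6. Leaving out Nipbl_het replicate 2, which is of set 5, gave 0.64 in that set (chosen after seeing the data). In double_het the excess was 1.21, 0.52 and 1.01. The set 2 libraries had 7.75 and 9.26 CPM in Nipbl_het and 6.84 and 9.27 CPM in double_het. Nipbl_het replicate 2 of set 5, at 15.3 CPM, and Nipbl_het replicate 8 of set 6, at 8.32 CPM, were also high. Without set 2 the double_het change was 0.71 and was not called (adjusted p = 0.225). Leaving out set 2 also cut the double_het calls over all genes from 391 to 113. The cause of the lost call was not tested. The difference of double_het from Isl1_het was 0.82 (adjusted p = 0.0279). It missed the threshold, with log2 changes of 0.70 to 0.81 and adjusted p from 0.0564 to 0.0973, when any 1 of 7 libraries was left out (Isl1_het replicates 4, 5, 7 and 9 and double_het replicates 6, 7 and 8), and without set 1, 2 or 6 (log2 changes of 0.86, 0.61 and 0.78, adjusted p = 0.0635, 0.609 and 0.0999). The difference of double_het from Nipbl_het was -0.46 (95% interval -0.82 to -0.09, adjusted p = 0.516), and the interaction was -0.53 (-1.04 to -0.02, adjusted p = 0.999), neither of them called. With Nipbl_het replicate 2 left out, the first was -0.19 (adjusted p = 0.736) and the second -0.28 (adjusted p = 1).

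The neighbours of H2bu2 were compared because a change shared along the locus would show in them. H2aw, an H2A gene that begins 5151 bases beyond H2bu2, was measured at 10.9 to 16.0 CPM in wild-type (median 13.0), 12.0 to 14.4 in Isl1_het (13.3), 12.4 to 18.0 in Nipbl_het (14.8) and 11.4 to 16.3 in double_het (13.9), and the groups overlapped throughout. Its log2 change was 0.21 in Nipbl_het (SE 0.08, adjusted p = 0.173) and 0.12 in double_het (adjusted p = 0.635). The pseudogene H2bu1-ps, which lies between them, had at most 16 reads in any library. Trim11 and Rnf187, genes of the same region, had log2 changes of -0.05 each in Nipbl_het (adjusted p = 0.801 and 0.839). Trim17, which overlaps H2aw, had -0.52 in Nipbl_het (adjusted p = 0.367) and -0.68 in double_het (adjusted p = 0.322). None of the tested neighbours was called. H2bu1-ps did not pass the filter on low counts and was not tested, and the difference between H2bu2 and H2aw was not itself tested.

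**Figure D2:**
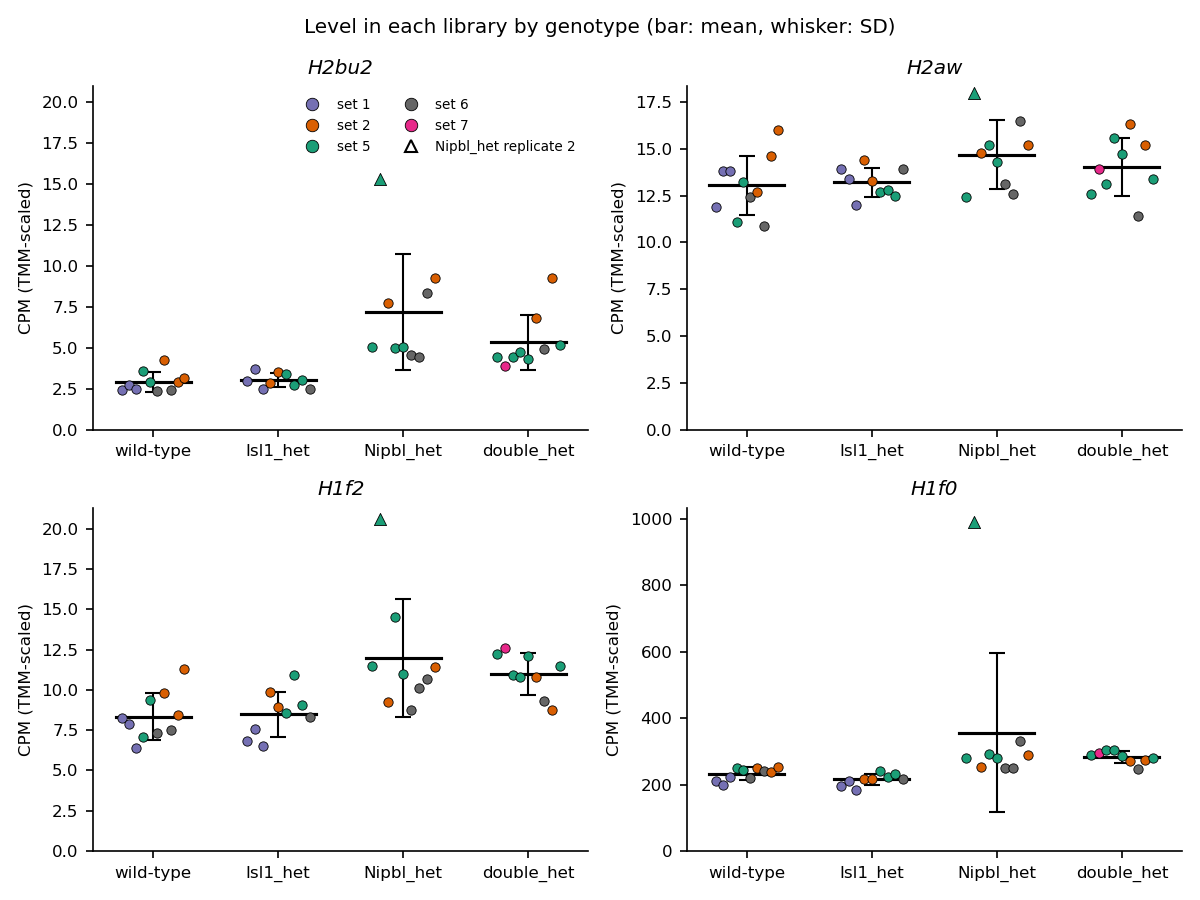
CPM of H2bu2, H2aw, H1f2 and H1f0 in each of 37 libraries by genotype; points are libraries coloured by set, the triangle is Nipbl_het replicate 2, and bars and whiskers are the mean and SD. H2bu2 lies at 2.37 to 4.27 in wild-type and at 4.44 to 15.3 in Nipbl_het with no overlap, while H2aw overlaps in all groups.

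No other tested H2B gene was called in the main fit. Of the 12 tested replication-dependent H2B genes, 7 had a higher and 5 a lower estimate in Nipbl_het, with a median log2 change of 0.17 against 0.008 over all tested genes. H2bc4, the most abundant H2B gene by CPM, was at 4.90 to 11.8 CPM in wild-type (median 8.03) and 6.66 to 17.9 in Nipbl_het (8.99). These groups overlapped, and its log2 change was 0.41 (SE 0.15, adjusted p = 0.176). H2bc21, whose model shares no window with another gene, had 0.14 in Nipbl_het (adjusted p = 0.673) and 0.26 in double_het (adjusted p = 0.524). H2bc9, among the 6 smallest p-values in Nipbl_het, had -1.21 (SE 0.42, adjusted p = 0.135), at 0.0496 to 0.396 CPM in Nipbl_het and 0.180 to 0.634 in wild-type, which is 2 to 18 reads per library. These 3 genes were called under other settings. With 2 surrogate variables added to the set term, H2bc4 was higher (log2 change 0.42 in Nipbl_het, adjusted p = 0.00171, and 0.27 in double_het, adjusted p = 0.0382), H2bc21 was higher in double_het (0.33, adjusted p = 0.0266) and H2bc9 was lower in Nipbl_het (-1.23, adjusted p = 0.0211). The same setting called all 3 for Nipbl loss averaged over both Isl1 genotypes, at 0.32 for H2bc4, 0.23 for H2bc21 and -0.90 for H2bc9 (adjusted p = 6.79e-04, 0.0292 and 0.0139). That averaged change of H2bc9 was -0.81 in the main fit (adjusted p = 0.16), and it was also called with the replicate number as a block (-0.89, adjusted p = 0.044) and without double_het replicate 8 (-1.03, adjusted p = 0.0472). Without set 5 it was -0.37 (adjusted p = 0.671).

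H1f2 was the second histone gene called. It encodes a replication-dependent linker histone, lies in the chromosome 13 cluster (M21, chr13:23738808-23740367, plus strand) and shares few windows with its paralogs H1f3 and H1f4. It was measured at 6.38 to 11.3 CPM in wild-type (median 8.08), 6.52 to 10.9 in Isl1_het (8.55), 8.72 to 20.6 in Nipbl_het (11.0) and 8.74 to 12.6 in double_het (10.9). All 18 Nipbl +/- libraries were above the mean of the 19 Nipbl +/+ libraries, and 8 of the 18 were above every one of them. These counts do not account for the set. Set 1 holds 6 of the 19 and no Nipbl +/- library, and the set term of H1f2 was called (F = 4.95, adjusted p = 0.0131). The log2 change was 0.41 in Nipbl_het (SE 0.11, adjusted p = 0.0487), 0.21 in double_het (SE 0.12, adjusted p = 0.539), -0.01 in Isl1_het (adjusted p = 0.989) and 0.32 for Nipbl loss averaged over both Isl1 genotypes (SE 0.09, adjusted p = 0.0289). The difference was 0.07, 0.77 and 0.40 within sets 2, 5 and 6 for Nipbl_het, and -0.01, 0.49 and 0.32 for double_het. In set 5 it was 0.59 for Nipbl_het without replicate 2.

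The H1f2 call in Nipbl_het sat at the threshold. It was lost when any 1 of 25 of the 37 libraries was left out, with adjusted p from 0.05 to 0.133 and log2 changes from 0.34 to 0.43. The 12 whose omission kept it were wild-type replicates 1, 7 and 10, Isl1_het replicates 3 and 7, Nipbl_het replicates 1, 2, 3, 5 and 6, and double_het replicates 2 and 8. Without set 5 the log2 change was 0.20 (adjusted p = 0.364). It was 0.43, 0.56 and 0.42 without set 1, 2 or 6, also uncalled (adjusted p = 0.109, 0.0736 and 0.13). RLE size factors, no filter on low counts and at least 10 counts in every library lost the call as well, with log2 changes of 0.40 to 0.41 and adjusted p of 0.0594, 0.0698 and 0.0522. Without Nipbl_het replicate 2, which at 20.6 CPM was the highest library, the log2 change was 0.31 with an adjusted p of 0.049995. The averaged call was lost without wild-type replicate 4 or 5, Isl1_het replicate 6 or 8 or double_het replicate 6 (log2 changes of 0.27 to 0.31, adjusted p 0.0528 to 0.0676). It was also lost without set 1 (0.31, adjusted p = 0.0583), set 5 (0.17, adjusted p = 0.348) or set 6 (0.32, adjusted p = 0.116). In double_het, H1f2 was called with the replicate number as a block in place of the set (log2 change 0.46, adjusted p = 0.0229), and had 0.40 with no set term (adjusted p = 0.067). The other replication-dependent H1 genes were measured lower and were not called: in Nipbl_het the log2 change was 0.32 for H1f3 (adjusted p = 0.619), -0.00 for H1f4 (adjusted p = 0.999) and -0.62 for H1f1 (adjusted p = 0.440).

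No replication-dependent H2A, H3 or H4 gene was called in any comparison. H2ac11, at 10.7 to 45.9 CPM in wild-type (median 29.3), was at 13.0 to 30.5 in Isl1_het (19.2), 6.20 to 33.4 in Nipbl_het (20.9) and 10.8 to 43.8 in double_het (15.3). The 4 groups overlapped widely. Its log2 change was -0.40 in Isl1_het (SE 0.24, adjusted p = 0.839), -0.07 in Nipbl_het (adjusted p = 0.922) and -0.16 in double_het (adjusted p = 0.880). The H2A gene H2ac8, at 1.22 to 4.77 CPM over all libraries, had 0.06 in Nipbl_het (adjusted p = 0.909).

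Of the H3 genes, H3c3 was at 1.85 to 4.22 CPM in wild-type (median 2.74) and 1.49 to 3.60 in Nipbl_het (2.09), with a log2 change of 0.10 (adjusted p = 0.833). H3c6 and H3c10, the next most abundant, had 0.02 and 0.05 (adjusted p = 0.980 and 0.952). In Isl1_het, H3c10 had -0.45 (SE 0.27, adjusted p = 0.839). Of the H4 genes, H4c9 was at 4.14 to 16.6 CPM in wild-type (median 6.31) and 3.92 to 13.8 in Nipbl_het (6.40), with a log2 change of 0.04 (adjusted p = 0.949). H4c2 and H4c4 had -0.21 and -0.39 in Nipbl_het (adjusted p = 0.719 and 0.528). H4c6, among the 6 smallest p-values in double_het and in Isl1_het, had -0.64 in double_het (SE 0.33, adjusted p = 0.478) at 1 to 22 reads in wild-type, Isl1_het and double_het libraries.

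Summed over the 55 replication-dependent genes, the level did not separate the genotypes. The sum was 68.9 to 139 CPM in wild-type (median 91.9), 70.1 to 104 in Isl1_het (81.2), 64.8 to 121 in Nipbl_het (95.5) and 72.2 to 146 in double_het (81.1). The difference in mean log2 sum from wild-type was -0.13 in Isl1_het, 0.04 in Nipbl_het and -0.08 in double_het, and these sums were not tested because the genes were chosen with earlier results known. By set, the medians were 93.4 in set 1, 111 in set 2, 79.7 in set 5 and 75.7 in set 6. The set term was called in 15 of 39 tested replication-dependent genes (38.5%), beside 38.2% of all tested genes.

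By type, the summed H2B genes had medians of 18.6 CPM in wild-type, 19.6 in Isl1_het, 24.4 in Nipbl_het and 21.2 in double_het, and the summed H1 genes 9.48, 10.1, 12.8 and 13.5. These sums include H2bu2 and H1f2. The summed H2A genes had medians of 47.4, 36.4, 38.7 and 32.9, the summed H3 genes 5.77, 5.21, 4.91 and 3.91, and the summed H4 genes 11.6, 12.8, 10.9 and 9.37. The ranges of the 4 genotypes overlapped in each of these 5 types.

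**Figure D3:**
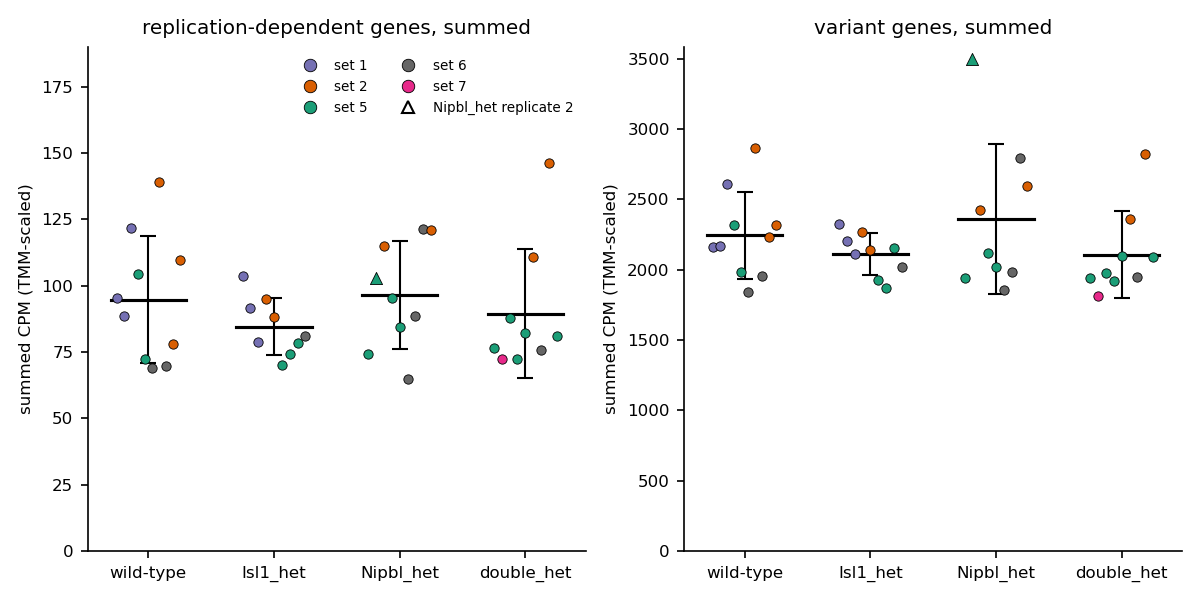
Summed CPM of the 55 replication-dependent genes (left) and the 10 variants (right) in each library by genotype; points are libraries coloured by set, the triangle is Nipbl_het replicate 2, and bars and whiskers are the mean and SD. The replication-dependent sum overlaps between genotypes, and wild-type replicate 7 (139) and double_het replicate 8 (146), both of set 2, are the highest libraries.

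Those 2 libraries were also high in many single replication-dependent genes. Wild-type replicate 7 was the highest of 37 libraries in 17 of the 39 tested replication-dependent genes and among the 3 highest in 23, and double_het replicate 8 was among the 3 highest in 22. The same libraries had the highest summed levels of 7 erythroid markers (globins, Alas2 and Slc4a1), at 106000 and 54000 CPM, beside group medians of 10600 in wild-type, 14500 in Isl1_het, 6730 in Nipbl_het and 15300 in double_het. The next highest in erythroid markers, Isl1_het replicates 4 and 5 at 48200 and 43200 CPM, had replication-dependent sums of 95.1 and 88.1 CPM. Wild-type replicate 3 and Nipbl_het replicates 8 and 9, with sums of 122, 121 and 121 CPM, had erythroid levels of 11100, 10000 and 10300 CPM. All 7 of these erythroid markers were detected. The part of blood cells in the histone levels was not tested. In bulk hearts, fewer cells of a type and less RNA per cell cannot be told apart.

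In the main fit with all 37 libraries no variant was called, and the result for the linker variant H1f0 depended on the setting. H1f0 (M21, chr15:79028450-79030504, plus strand) was measured at 198 to 253 CPM in wild-type (median 239), 185 to 242 in Isl1_het (217), 249 to 991 in Nipbl_het (280) and 247 to 305 in double_het (287). Every double_het library was above every Isl1_het library, and 14 of 18 Nipbl +/- libraries were above all 19 Nipbl +/+ libraries. With all libraries the log2 change was 0.50 in Nipbl_het (SE 0.17, adjusted p = 0.126), 0.12 in double_het (adjusted p = 0.865) and -0.15 in Isl1_het (adjusted p = 0.886). The highest library was Nipbl_het replicate 2 at 991 CPM, and the next in its group was at 330. With all 37 libraries, H1f0 was called in Nipbl_het with no set term (log2 change 0.62, adjusted p = 0.0305) and with 2 surrogate variables (0.18, adjusted p = 0.00915). The surrogate variables also called it in double_het against Isl1_het (0.24, adjusted p = 8.68e-04). For averaged Nipbl loss it was called with no set term (0.505, adjusted p = 0.00533), the replicate block (0.45, adjusted p = 0.0131) and surrogate variables (0.21, adjusted p = 4.36e-05).

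Without Nipbl_het replicate 2, H1f0 rose in Nipbl_het, with a log2 change of 0.20 (SE 0.05, adjusted p = 0.0305), and in double_het, with 0.18 (SE 0.05, adjusted p = 0.0428). It was higher in double_het than in Isl1_het by 0.31 (SE 0.05, adjusted p = 9.05e-04) and higher with Nipbl loss averaged over both Isl1 genotypes by 0.25 (SE 0.04, adjusted p = 6.58e-05), and its Isl1_het change was -0.13 (adjusted p = 0.360). Leaving out all of set 5, which holds that library, gave 0.21 in Nipbl_het (adjusted p = 0.162) and 0.24 for averaged Nipbl loss (adjusted p = 0.0502), neither called. Within sets 2 and 6, which do not hold the library, mean log2 CPM in Nipbl_het exceeded wild-type by 0.13 and 0.25. H3f3b, a gene of the replacement histone H3.3, had 0.49 in Nipbl_het with all libraries (adjusted p = 0.204) and 0.13 without this one (adjusted p = 0.229), and without it was called for Nipbl loss averaged over both Isl1 genotypes (log2 change 0.14, SE 0.04, adjusted p = 0.0263).

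With genotype and set as the only terms, the remaining variants were not called with or without that library. H2az1, the variant found at promoters, was at 466 to 814 CPM in wild-type (median 585) and 170 to 773 in Nipbl_het (489), with a log2 change of -0.15 (adjusted p = 0.649). H2ax, the variant phosphorylated at DNA breaks, had -0.19 (adjusted p = 0.554). H2az2 had 0.03 (adjusted p = 0.941), H3f3a 0.02 (adjusted p = 0.944) and H3f3c -0.13 (adjusted p = 0.726). H1f10, a linker variant, had 0.20 (SE 0.09, adjusted p = 0.272). These values are all from Nipbl_het against wild-type. For Nipbl loss averaged over both Isl1 genotypes, H1f10 had 0.20 (adjusted p = 0.0984). It was called with 2 surrogate variables (0.19, adjusted p = 0.00883), without set 5 (0.31, adjusted p = 0.049), without wild-type replicate 4 (0.25, adjusted p = 0.0237) and without Nipbl_het replicate 1 (0.22, adjusted p = 0.0476). The value was lower and not called with no set term (0.07), with the replicate number as a block (0.07, adjusted p = 0.64) and without set 2 (0.10, adjusted p = 0.692, the highest of these). The summed variants were at 1840 to 2870 CPM in wild-type (median 2200), 1870 to 2320 in Isl1_het (2140), 1860 to 3500 in Nipbl_het (2120) and 1810 to 2820 in double_het (1970). The highest value was that of Nipbl_het replicate 2, and the other Nipbl_het libraries reached 2790.

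Over the tested histone genes, 2 of 48 were called in Nipbl_het, both higher, where 1.71% of all 15046 tested genes were called. In double_het 1 of 48 was called, beside 2.6% of all genes, and for double_het against Isl1_het 1 of 48, beside 0.957%. For Nipbl loss averaged over both Isl1 genotypes 2 of 48 were called, beside 4.02% of all genes. These shares are of the order of the background. Estimates were divided, with 25 higher and 23 lower in Nipbl_het (median 0.02), 24 and 24 in double_het (median -0.02) and 18 and 30 in Isl1_het (median -0.09), where the medians over all genes were 0.008, -0.002 and -0.003. Groups that did not overlap, with all libraries higher, were found for 1 histone gene in Nipbl_het (0.133% of all genes), 0 in double_het (0.326%) and 2 in double_het against Isl1_het, H2bu2 and H1f0 (0.186%). Leaving out Nipbl_het replicate 2 again gave 1 in Nipbl_het (0.213%).

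In Isl1_het against wild-type, 0 of 48 histone genes were called by edgeR and 0 by DESeq2, and 0% of all tested genes were called by edgeR. An unadjusted p under 0.05 was found for 0 of the 48, beside 5.89% of all genes. The 6 with the smallest p-values were H2ac11, H3c10, H2bc12 (-0.32), H1f1 (-0.40), H4c8 (-0.36) and H4c6 (-0.31), all with lower estimates and adjusted p from 0.839 to 0.881. In double_het against Nipbl_het and for the interaction, 0 of 48 were called by either tool, beside 0% of all genes by edgeR in each. At an unadjusted p under 0.05 there were 5 and 2 of the 48, beside 9.01% and 2.73% of all genes. Comparisons with wild-type share its 10 libraries, so their values are not independent of each other.

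**Figure D4:**
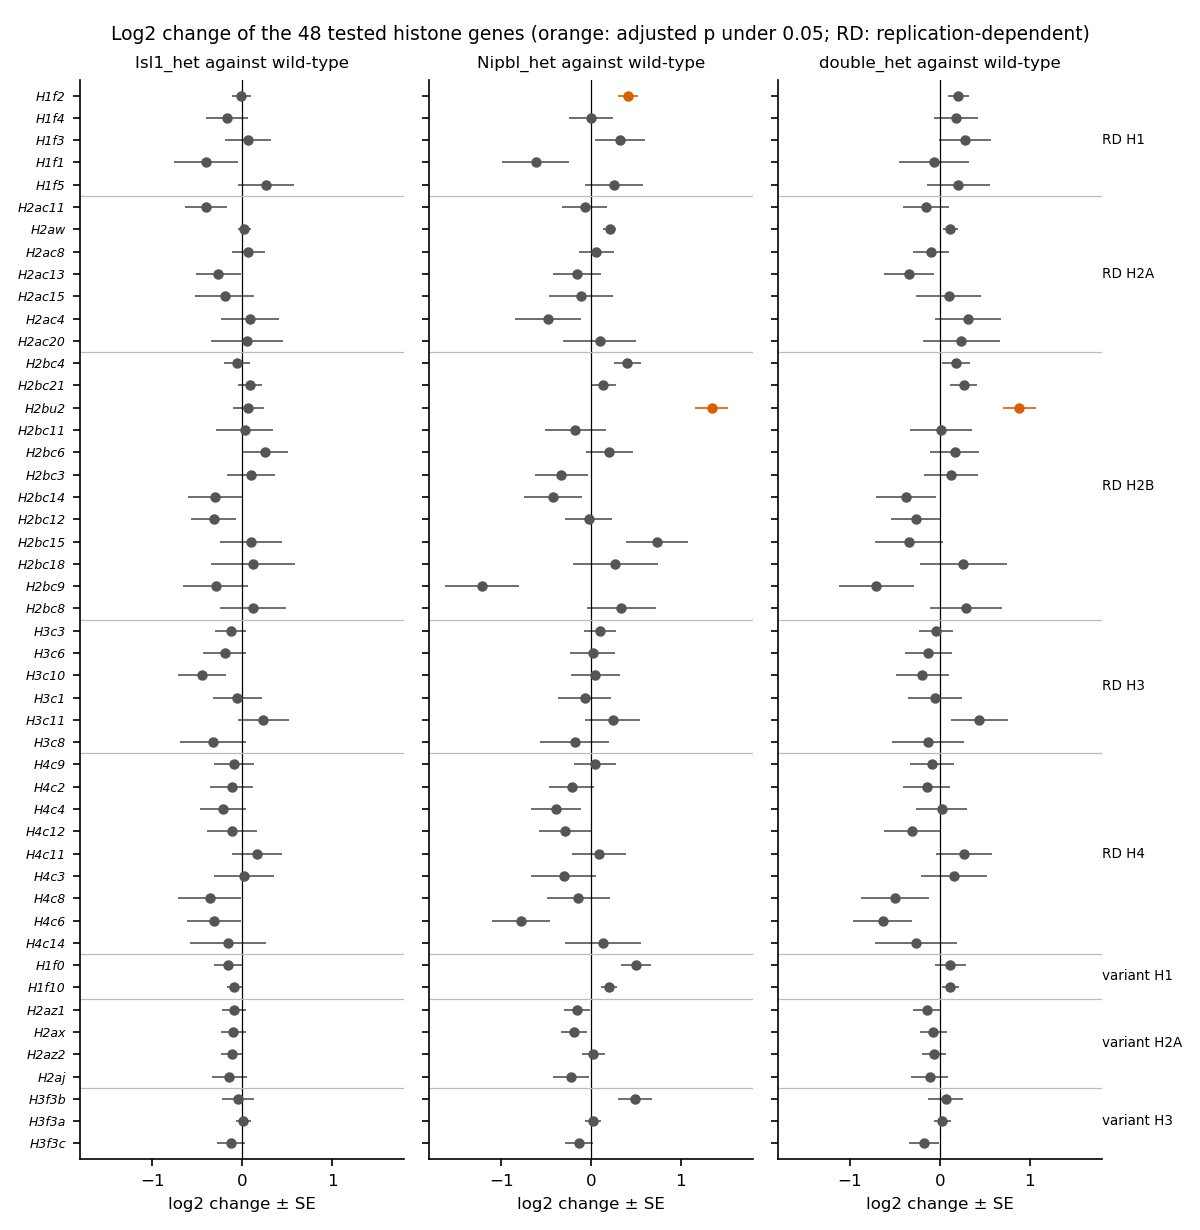
Log2 change (points) with its SE (bars) of the 48 tested histone genes against wild-type in Isl1_het, Nipbl_het and double_het, by class and in order of abundance; orange points passed the adjusted p threshold of 0.05. H2bu2 at 1.34 and 0.89 and H1f2 at 0.41 are the called values.

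Without Nipbl_het replicate 2, the fit tested 50 histone genes among 15072 genes and called 3 in Nipbl_het (H2bu2, H1f2 and H1f0), 2 in double_het (H2bu2 and H1f0), 2 in double_het against Isl1_het (the same 2 genes) and 4 for Nipbl loss averaged over both Isl1 genotypes (H2bu2, H1f2, H1f0 and H3f3b). The shares of all genes called were 2.72%, 5.57%, 2.4% and 6.93%. In Isl1_het, 0 of 50 were called, beside 0.0133% of all genes. The library stands apart from its labels: its Nipbl level was 72.4 CPM, inside the 47.6 to 78.8 CPM of the Nipbl +/+ libraries, while the other Nipbl +/- libraries were at 27.1 to 51.5. Double_het replicate 2, at 51.5 CPM, also lay within the Nipbl +/+ range, above wild-type replicate 3 at 47.6, and is the Nipbl +/- library whose H2bu2 level (3.87 CPM) lay within that of wild-type. Isl1 levels do not check the Isl1 labels, as Isl1_het (4.38 to 10.4 CPM) overlapped wild-type (5.03 to 13.0), with a log2 change of -0.20 (adjusted p = 0.877). For Isl1, the log2 change in Nipbl_het was 0.79 (adjusted p = 0.0252). Nipbl was lower in Nipbl_het (-0.74, adjusted p = 3.48e-04) and double_het (-0.82, adjusted p = 7.19e-05).

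The histone genes of Nipbl_het replicate 2 lay at both ends of the range. It was the highest of 37 libraries in 10 of 68 histone genes and the lowest in 10, was over 2-fold above the median of the other libraries in 11 and under 0.5 of it in 22. Ratios to that median were 4.06 for H3f3b, 4.02 for H2bu2, 3.97 for H1f0 and 2.21 for H1f2. They were 0.326 for H2az1, 0.307 for H2ac11 and 0.261 for H2ax. The same library had 515 CPM of Malat1 (median of the others 148) and 162 CPM of Neat1 (9.45), both nuclear RNAs, and a summed level of 2080 CPM over 23 S phase genes, where the others ranged from 2780 to 3830. The part of RNA quality or cell state in these values was not tested.

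**Figure D5:**
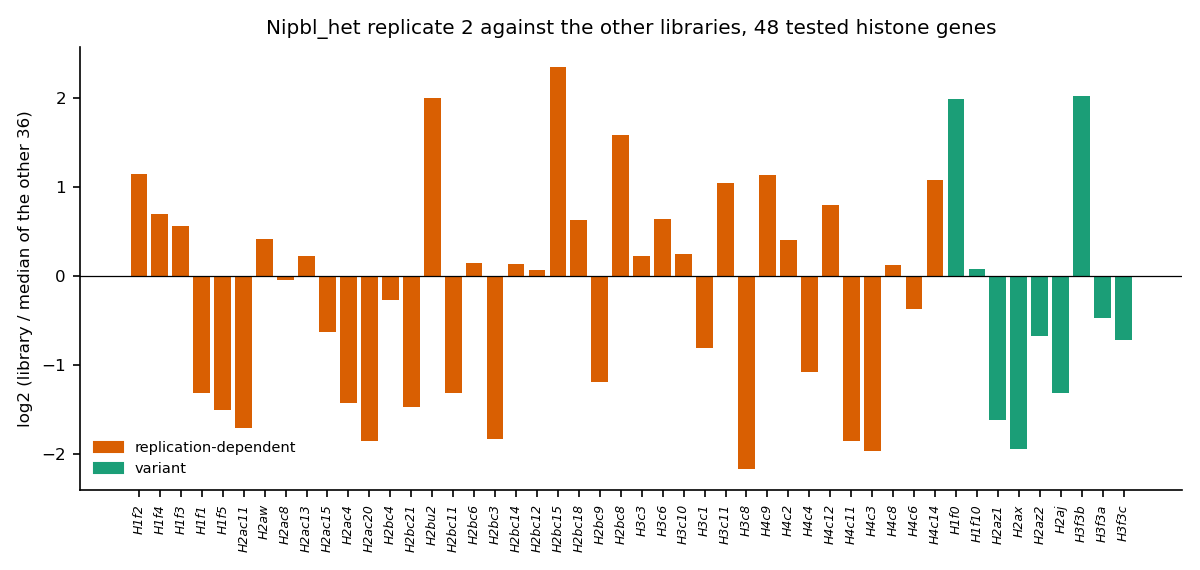
Log2 ratio of Nipbl_het replicate 2 to the median of the other 36 libraries for the 48 tested histone genes, with replication-dependent genes and variants in different colours; bars start at 0. H2bu2, H1f0 and H3f3b have ratios of 3.97 to 4.06, and H2az1, H2ax and H2ac11 lie at 0.261 to 0.326.

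Genes that process or deposit histones were read beside the 1.71% of all tested genes called in Nipbl_het. Of 25 genes of histone transcription and message 3' end processing (among them Npat, Slbp and Lsm11), 0 were called by edgeR in Nipbl_het, double_het or Isl1_het, with 2, 2 and 1 at an unadjusted p under 0.05, beside 15.1%, 11.6% and 5.89% of all genes. Of 29 chaperone and deposition genes, 1 was called in Nipbl_het: Anp32e, which removes H2A.Z from nucleosomes, had a log2 change of -0.19 (SE 0.05, adjusted p = 0.0473). Of 23 S phase genes, 23 had a lower and 0 a higher estimate in Nipbl_het (median -0.15, against 0.008 over all genes), and 1 was called: Mcm7, a subunit of the replicative helicase, at -0.20 (SE 0.05, adjusted p = 0.0427). Without Nipbl_het replicate 2, 21 of 23 were lower (median -0.11), Mcm7 was called, and Supt16, a histone chaperone subunit, was called lower beside Anp32e. In that fit 2.72% of all tested genes were called in Nipbl_het. In double_het 18 of 23 S phase genes had a lower estimate (median -0.05) and none was called, 2 of them with an unadjusted p under 0.05.

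Markers of the heart's cell types were detected in all lists. Among 5 epicardial markers, Wt1 was called higher in Nipbl_het (log2 change 0.31, adjusted p = 0.0178) and in double_het (0.53, adjusted p = 6.05e-05), and Tbx18 (0.38, adjusted p = 0.0186) and Upk3b (0.72, adjusted p = 5.03e-04) in double_het. That is 1 of 5 in Nipbl_het and 3 of 5 in double_het, beside 1.71% and 2.6% of all genes. The uncalled Tcf21 and Aldh1a2 had 0.51 and 0.42 in double_het (adjusted p = 0.104 and 0.262) and 0.11 and 0.10 in Nipbl_het (0.780 and 0.811). For Nipbl loss averaged over both Isl1 genotypes, Tubb3, a neuronal tubulin, was called higher (0.49, adjusted p = 0.0234) and Col1a2, a mesenchymal collagen, lower (-0.38, adjusted p = 0.0379). These are 1 of 3 tested neural and 1 of 4 mesenchymal markers, beside 4.02% of all genes, and the medians of the 2 lists were -0.09 and -0.08. The summed epicardial level was 209 to 397 CPM in wild-type (median 347), 253 to 460 in Isl1_het (427), 337 to 517 in Nipbl_het (423) and 426 to 568 in double_het (539). Every double_het library was above every wild-type library, and the part of epicardial cells in the H2bu2, H1f2 and H1f0 changes was not tested. Liver markers (Alb, Afp, Apoa1, Apoa2 and Ttr) summed to 2.18 to 371 CPM in Nipbl_het (median 4.42), 2.26 to 17.0 in wild-type (3.40) and 2.12 to 16.4 in double_het (2.95). Of the 4 tested, 4 had a higher estimate in Nipbl_het (median 1.75) and 0 were called, 3 of them with an unadjusted p under 0.05, beside 15.1% of all genes. The highest Nipbl_het library was replicate 9 at 371 CPM, and the next was replicate 5 at 11.3. The part of liver cells in the histone values was not tested.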

How the data were processed

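The data are 37 bulk libraries of embryonic hearts, read from both ends. RNA came from the NEB Monarch kit and libraries from a NEBNext Ultra II kit, per the labels' protocols. The submitters' processing notes name STAR, featureCounts and GRCm38/mm10, and versions, annotation and strand setting are not given in the sources used here. The authors deposited raw counts per gene symbol, not normalized, with 23.4 to 51.0 mega-counts per library (median 36.2). Counting error and the spread between hearts both enter the fit. The labels do not say whether each library is a separate embryo, and p-values measure the spread between these libraries.

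The low-count filter was filterByExpr on the genotypes, which asks for a CPM worth 10 counts in a library of median size in at least 9 libraries and for 15 counts in total, and it kept 15046 genes. A quasi-likelihood model in edgeR 4.0.16 (on R 4.3.3, beside limma 3.58.1) took TMM-scaled counts of all libraries, with factors for genotype and set. Tests were two-sided, with Benjamini-Hochberg adjustment over all genes in each comparison and a threshold of 0.05. Set 7 is fitted exactly by its term, so double_het comparisons rest on 8 libraries, while levels use 9. SEs come from the F statistic, and 95% intervals use the fit's t quantiles.

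Alternatives were no set term, the replicate number in place of the set, 2 surrogate variables (sva 3.50.0) added to the set term, DESeq2 1.42.0, relative log expression (RLE) size factors, no filter, at least 10 counts in every library, each of sets 1, 2, 5 and 6 left out, and each library left out. Named genes were Nipbl, Isl1, called histone genes, the 3 most abundant per class, the 6 with the smallest p-values against wild-type, and called members of the gene lists. Neighbours of H2bu2, other genes of small counts and genes of Nipbl_het replicate 2 were named after their values were seen. The histone genes, lists and tests were chosen with earlier results of these data known. On simulated counts for Nipbl_het against wild-type over 15046 genes, 77.5% of 200 changed genes were recovered (58.8%, 85% and 100% at log2 changes of 0.5, 1 and 2), 7 of 162 calls were false, and an unchanged comparison gave 0 calls. The simulation held no set effects and no library like Nipbl_het replicate 2, so these rates may not hold for the real libraries. No pair of libraries of 1 genotype agreed within sampling noise (lowest chi-square per degree of freedom 7.36 over 153 pairs). Of the 68 symbols, 64 were found in the RefSeq table (GRCm38.p6), 57 had a promoter and 68 an M21 model. No columns of values lacked a sample. Other tools were Python 3.11.15, pandas 2.3.3, numpy 2.4.6, scipy 1.17.1 and matplotlib 3.10.9. The erythroid list was used without 1 of its markers, which is not reported here.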

Additional observations from a re-analysis of the deposited data

Results flagged for a closer look

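In groups of 9 or 10 libraries, the gap between the highest or lowest library and the next one was compared with the range of the group (Dixon's 95% critical value). This was done for 28 named histone genes and the summed replication-dependent level, 116 groups in all, and 22 exceeded the value. A share of 5% by chance holds for independent groups of normally spread values. Here CPM were not transformed and the same libraries recur over genes, so the 22 were not measured against chance.

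Of the 22, 6 were Nipbl_het replicate 2. It was the highest Nipbl_het library for H1f0 at 991 CPM (next 330), H1f2 at 20.6 (14.5), H2bu2 at 15.3 (9.26) and H3f3b at 1790 (573). It was the lowest for H2ax at 52.0 CPM (next 161) and H2bc21 at 1.83 (4.46). H2bu2 and H1f2 remained called in Nipbl_het without it.

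In double_het, replicate 8 was the highest library for H2ac11 at 43.8 CPM, H2ac8 at 4.60, H2az1 at 718, H2bc12 at 0.641, H2bc9 at 0.565, H3f3c at 76.6, H4c2 at 2.98 and H4c9 at 14.4. In wild-type, replicate 7 was the highest for H2ac8 at 4.77 CPM, H3f3c at 87.6, H4c6 at 1.10 and H4c9 at 16.6. H2ac8, H3f3c and H4c9 stood apart in both of these libraries of set 2.

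Nipbl_het replicate 9 was the highest library of its group for H1f1 at 0.806 CPM and H3c10 at 1.14. Isl1_het replicate 2 was the highest for H1f4 at 1.07 CPM, and Isl1_het replicate 5 the lowest for H3f3c at 28.1 CPM.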

How the results depend on the processing

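No value changed direction past a threshold, and the summed replication-dependent level moved by less than its spread under each alternative run. The count of called histone genes in Nipbl_het (2) was 5 with 2 surrogate variables and 1 with RLE size factors, with no filter, with at least 10 counts in every library and without set 1, 2, 5 or 6. It ranged from 1 to 3 when single libraries were left out, with 3 without Nipbl_het replicate 2. The count in double_het (1) was 3 with 2 surrogate variables, 0 without set 2 and 1 to 2 when single libraries were left out. For double_het against Isl1_het (1) it was 2 with 2 surrogate variables, 0 without set 1, 2 or 6, and 0 to 2 when single libraries were left out. For Nipbl loss averaged over both Isl1 genotypes (2) it was 7 with 2 surrogate variables, 1 without set 1 or 6, and 1 to 4 when single libraries were left out; it was 2 without set 5, with H1f10 in place of H1f2. In Isl1_het, in double_het against Nipbl_het and for the interaction it was 0 in each setting run. The cause was not tested.

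With the replicate number as a block in place of the set, the count was 2 in double_het (H1f2 added) and 4 for averaged Nipbl loss (H1f0 and H2bc9 added), and unchanged elsewhere. The numbers do not pair the libraries: correlations of deviations over 54 pairs ranged from -0.45 to 0.55 (median 0.028), and 3 of 37 libraries correlated best with their own number. Most replication-dependent genes were under 1 CPM, which limits the changes that could be seen in them.

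Over all genes, the count called in Nipbl_het (258) ranged from 167 to 410 and in double_het (391) from 244 to 839 when single libraries were left out. Without set 2 it was 31 and 113, without set 5 it was 124 and 67, and with 2 surrogate variables 1332 and 1779.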
